A study of Homo sapiens with 6 samples.

Results

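ASNS, PSAT1 and PHGDH, which encode enzymes that build asparagine and serine, were each more highly expressed in TGF-β1-treated LX-2 cells after albiflorin (ALB). ASNS rose most, 6.30-fold, PSAT1 rose 4.23-fold and PHGDH 2.44-fold, with 3 libraries in each group. The FPKM values of the groups did not overlap in any of the 3 genes, as in 895 (95.5%) of the table's 937 genes, with every ALB library the higher in 40.7%, so this separation is the rule in the table. The levels of PSAT1 and PHGDH, which lay apart without ALB, overlapped with it. The 3 genes were taken by name from the deposited table of 937 genes, in which all 3 were found. The study had kept a gene in this table when it differed over 2-fold between these same 6 libraries with P under 0.01. Tests on the same counts therefore repeat that selection and are not independent evidence.

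The cells were LX-2, a widely used line of human stellate cells from liver, and ALB is a monoterpene glycoside of peony root (here the abbreviation never means the albumin gene). Cells of both groups were first exposed to TGF-β1 (20 ng/mL, 24 h), the cytokine that drives stellate cells towards a matrix-producing state. A second step of 24 h followed, with ALB (ALB group, 3 libraries) or without it (TGF-β1 group, 3 libraries). The labels call the samples of the TGF-β1 group control, the ALB dose of the sequenced cells was not found in the labels or methods, and no cells free of TGF-β1 were analysed here. The methods speak in general of independent experiments, but the labels do not say whether the libraries of a group were grown as separate cultures, and the p-values rest on a spread between libraries that could be purely technical. Poly(A) RNA was sequenced in bulk, so a rise in every cell cannot be told apart from a larger rise in some of the cells. The labels name hepatocytes as cell type beside the stellate line. Of 16 hepatocyte markers 0 were in the table, and of 21 stellate cell markers 6 were. The table holds only genes that differed between the groups, so a marker with equal levels in both would be absent. These counts therefore do not show which cells were present. Of the 6 stellate cell markers, NGFR (log2 fold change 3.99) and PDGFRA (1.39) were called higher with ALB. COL3A1 (-3.04), COL1A2 (-2.55), TAGLN and LOX were called lower, a count of 4 lower that was 3 with TMM factors and 2 with DESeq2's own size factors. Mean levels without and with ALB were low for COL1A2 (0.60 and 0.10 FPKM) and PDGFRA (0.19 and 0.55 FPKM). With a minimum mean of 1 FPKM only 4 of the 6 were tested, of which 1 was called higher and 3 lower. Lower calls made up 56.9% of the whole table, so 4 of 6 is near the background. ACTA2, COL1A1 and DES, further markers of these cells, were not among the 937 genes.

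PHGDH, phosphoglycerate dehydrogenase, opens the route that turns a glycolytic intermediate into serine. PSAT1, phosphoserine aminotransferase, takes the next step with nitrogen from glutamate, and PSPH, a phosphatase, completes it. Serine is in turn the source of glycine and of one-carbon units, and in lung fibroblasts treated with TGF-β this route is known to supply glycine for collagen. ASNS, asparagine synthetase, makes asparagine from aspartate with nitrogen from glutamine. All 3 genes are known targets of ATF4, a transcription factor that is translated in amino acid shortage or protein misfolding, when the initiation factor eIF2 becomes phosphorylated.

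In GRCh38 with GENCODE 29, ASNS spans bases 97852118 to 97872542 of chromosome 7 (minus strand), PSAT1 is on chromosome 9 from 78297143 to 78330093 on the plus strand and PHGDH on chromosome 1 from 119648411 to 119744226 on the plus strand. The sequences around their RefSeq starts (GRCh38.p14) are shown because ASNS is known for an ATF4-binding element at this place. Each window holds 250 bases before the start and 50 from it on, read on the strand of the gene, and capitals mark the motifs that were found. The ASNS window is chr7:97872359-97872658, that of PSAT1 chr9:78296875-78297174 and that of PHGDH chr1:119711684-119711983, which lies inside the longer GENCODE gene.
ASNS: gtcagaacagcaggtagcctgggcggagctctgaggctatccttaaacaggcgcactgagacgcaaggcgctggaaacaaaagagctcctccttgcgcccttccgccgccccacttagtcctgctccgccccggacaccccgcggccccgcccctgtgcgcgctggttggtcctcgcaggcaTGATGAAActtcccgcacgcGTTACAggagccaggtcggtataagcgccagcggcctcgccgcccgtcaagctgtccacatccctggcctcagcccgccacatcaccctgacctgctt
PSAT1: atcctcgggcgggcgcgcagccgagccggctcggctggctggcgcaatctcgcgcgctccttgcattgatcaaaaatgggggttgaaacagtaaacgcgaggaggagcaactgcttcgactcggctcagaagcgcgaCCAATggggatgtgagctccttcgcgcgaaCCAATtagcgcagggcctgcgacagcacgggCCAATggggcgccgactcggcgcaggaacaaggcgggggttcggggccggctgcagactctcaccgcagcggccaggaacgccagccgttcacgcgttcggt
PHGDH: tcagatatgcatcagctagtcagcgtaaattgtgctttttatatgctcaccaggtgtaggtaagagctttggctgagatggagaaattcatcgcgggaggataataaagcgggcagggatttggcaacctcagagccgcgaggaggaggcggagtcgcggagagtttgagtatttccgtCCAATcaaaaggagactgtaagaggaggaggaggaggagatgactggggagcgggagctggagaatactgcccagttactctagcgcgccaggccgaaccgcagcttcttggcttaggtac

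The motifs searched, on both strands, were TGATGNAA (the composite site of C/EBP and ATF factors), GTTACA (the second nutrient-sensing element known from the ASNS promoter), TGACGTCA (the cyclic AMP response element), CACGTG (the E-box) and CCAAT (the CCAAT box). None of the matches overlapped another. The ASNS window held TGATGAAA from position -68 and GTTACA from position -48, counted back from the start. TGATGNAA was in 3.62% of all 35116 windows of this length and GTTACA in 6.66%. The PSAT1 window held neither of these, and had the CCAAT box at positions -113, -83 and -52. The PHGDH window had a single CCAAT box, at position -71, and CCAAT was in 34.6% of all windows. The cyclic AMP response element (1.85% of all windows) and the E-box (7.26%) were in none of these 3 windows. A further annotated ASNS start, in a window that overlaps the first, had 0 matches. A match is a description of letters and was not tested for binding.

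The values of each library are given next as FPKM, a unit that divides the fragments of a gene by transcript length and sequencing depth and so allows levels of different genes to be compared. ASNS was at 11.3, 13.1 and 13.2 FPKM in TGF-β1 replicates 1 to 3 and at 81.4, 101 and 57.4 FPKM in ALB replicates 1 to 3. The groups lay far apart, and the lowest ALB library was 4.35 times the highest TGF-β1 library. The mean went from 12.5 ± 1.07 to 79.9 ± 21.8 FPKM (SD, n = 3 libraries per group), and edgeR put the rise at 2.66 ± 0.23 (SE) on the log2 scale, with adjusted p = 1.86e-05 from its quasi-likelihood test (Benjamini-Hochberg adjustment across the whole table). All folds are ALB over TGF-β1. Among the 400 genes with a positive fold change, ASNS stood 28th by fold change and 12th by mean FPKM in that group.

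PSAT1 was at 30.1, 27.0 and 36.5 FPKM in TGF-β1 replicates 1 to 3 and at 128, 162 and 105 FPKM in ALB replicates 1 to 3. The lowest ALB library was 2.87 times the highest TGF-β1 library. The mean went from 31.2 ± 4.83 to 132 ± 28.8 FPKM, and the rise was 2.08 ± 0.21 (SE) in log2 units (edgeR, adjusted p = 5.29e-05). PSAT1 stood 62nd of the same 400 genes by fold change and 8th by mean FPKM with ALB.

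PHGDH was the most abundant of the 3 without ALB, at 50.6, 53.2 and 56.5 FPKM in TGF-β1 replicates 1 to 3, and was at 127, 151 and 117 FPKM in ALB replicates 1 to 3. Here too the groups were separate, with the lowest ALB library 2.07 times the highest TGF-β1 library. The mean went from 53.4 ± 2.98 to 132 ± 17.6 FPKM, which edgeR put at 1.29 ± 0.17 (SE) in log2 units, with adjusted p = 0.000149. Its fold change was 246th of the 400, nearer to the 2-fold limit of the table, although in mean FPKM with ALB it was 7th, just above PSAT1.

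All 3 enzymes were thus called as higher with ALB by edgeR. Of the table's 937 genes 931 were called (99.4%) and 398 (42.5%) were called higher, so a call is the rule in this table and the count of 3 of 3 is not a result about these enzymes. A two-sided exact permutation test of the FPKM values over libraries gave p = 0.1 for each enzyme, the smallest p that 3 libraries against 3 allow. The genes of the table as a whole had a median log2 fold change of -0.97. As the study kept only genes changed over 2-fold, this median reflects that more genes were called lower (533) than higher. Its sign is opposite to that of the enzymes, as it is to that of every gene that rose. The counts were scaled by depths estimated from counts and FPKM. With TMM factors, computed as if most of the table were unchanged, the median moved to -0.37 and the folds became 9.45 for ASNS, 6.39 for PSAT1 and 3.69 for PHGDH. With DESeq2's own size factors the median was -0.27 and the folds were 10.2, 6.86 and 3.96.

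**Figure D1:**
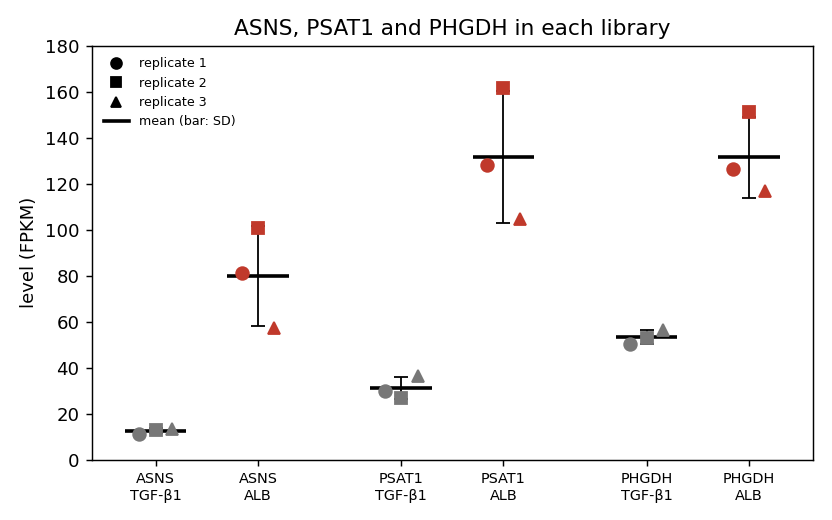
Level in FPKM (vertical axis) of ASNS, PSAT1 and PHGDH in each of the 3 TGF-β1 libraries (grey) and 3 ALB libraries (red), with the mean as a thick line and the SD as a bar. All ALB points lie above all TGF-β1 points of the same gene, as in 40.7% of the genes of the table (95.5% do not overlap in either direction), and the ALB means of PSAT1 and PHGDH are both 132 FPKM.

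The counts behind these levels were large. The lowest was 966 counts, for ASNS in TGF-β1 replicate 2, with an exact Poisson 95% interval of 906 to 1029, and the highest was 12623, for PSAT1 in ALB replicate 2. The spread between ALB libraries exceeded this counting error, since ASNS had 6170, 8132 and 5460 counts in ALB replicates 1 to 3, with intervals that do not overlap, while the depths of these libraries differed by less (0.977, 0.975 and 1.13). These intervals cover counting error only. A single count was worth between 0.0105 and 0.0163 FPKM for these genes. RefSeq lists 5 pseudogenes of ASNS, 4 of PSAT1 and 0 of PHGDH, and none was in the table. It also lists a longer transcript, CZ1P-ASNS, which overlaps ASNS on the same strand. Reads shared with these loci could not be told apart from those of the enzymes, and their part in the values was not tested.

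The measured rises of the enzymes differed in size, and the ratios between them describe this without any scaling of libraries. Per kilobase, there were 0.224, 0.247 and 0.234 ASNS fragments for each PHGDH fragment in TGF-β1 replicates 1 to 3, and 0.643, 0.668 and 0.490 in ALB replicates 1 to 3. The ratio thus went from 0.235 ± 0.0116 to 0.600 ± 0.0961 (SD, n = 3 libraries per group), a difference of 1.34 on the log2 scale. Its groups did not overlap, but the share of other gene pairs of the table without overlap was not computed. The separation is therefore not a result particular to these enzymes. The ratio of PSAT1 to PHGDH went from 0.583 ± 0.0694 to 0.992 ± 0.0902, a log2 difference of 0.77. In ALB replicates 1 and 2 PSAT1 was slightly above PHGDH, and in ALB replicate 3 it was below, at 0.894. The smallest of the 3 shifts was that of ASNS to PSAT1, from 0.408 ± 0.0678 to 0.602 ± 0.0468 (log2 difference 0.57), with 0.486 in TGF-β1 replicate 2 as the nearest value to the ALB range of 0.549 to 0.635. Each of the 3 pairs compared gave p = 0.1 (two-sided exact permutation test over libraries, 0.1 after Benjamini-Hochberg adjustment over the pairs), which is the smallest p possible here, so no pair could pass 0.05. The pooled SD between replicates of the same ratio was 0.16 to 0.18 on the log2 scale, below each log2 difference. This is a description and not a test, since the differences restate the unequal folds of genes selected on these same libraries.

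**Figure D2:**
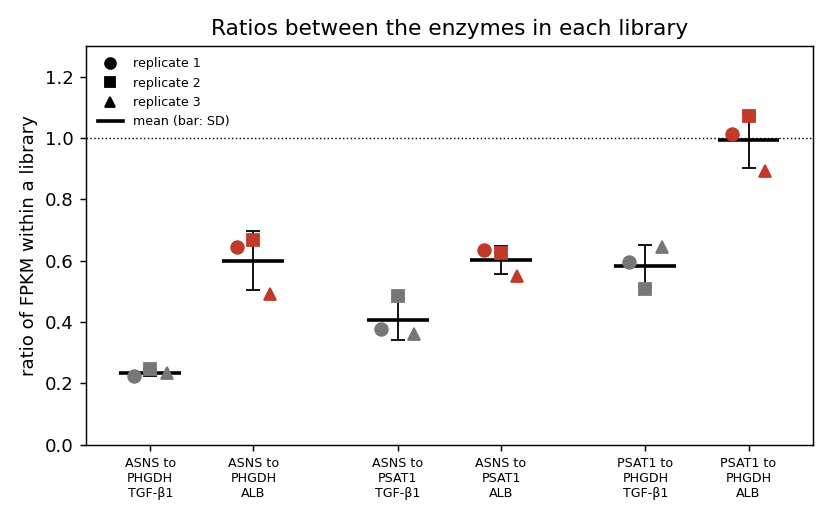
Ratio of FPKM values within a library (vertical axis) for ASNS to PHGDH, ASNS to PSAT1 and PSAT1 to PHGDH, with the 3 TGF-β1 libraries in grey, the 3 ALB libraries in red, the mean as a thick line and the SD as a bar. Each ratio has the gene of larger fold change on top and is higher in all ALB libraries than in any TGF-β1 library. How many other gene pairs of the table would separate in this way was not computed. PSAT1 to PHGDH reaches the dotted line at 1 with ALB, at 0.992 on average.

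Without ALB the order of levels was ASNS, then PSAT1, then PHGDH, with no overlap between neighbours (11.3 to 13.2, 27.0 to 36.5 and 50.6 to 56.5 FPKM). With ALB, ASNS was still the lowest (57.4 to 101 FPKM), whereas PSAT1 (105 to 162 FPKM) and PHGDH (117 to 151 FPKM) overlapped. The 3 enzymes together had 92.0, 93.3 and 106 FPKM in TGF-β1 replicates 1 to 3 and 336, 414 and 279 FPKM in ALB replicates 1 to 3. Within this sum the share of ASNS went from between 12.3% and 14.1% to between 20.6% and 24.4%. That of PSAT1 went from between 28.9% and 34.3% to between 37.5% and 39.1%, and that of PHGDH from between 53.2% and 57.0% down to between 36.5% and 42.0%.

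Across the ALB libraries the 3 enzymes followed the same order in FPKM and in depth-scaled counts, with replicate 2 highest and replicate 3 lowest. Unscaled counts of PHGDH were 8222, 9901 and 8739 in ALB replicates 1 to 3. For PHGDH the place of replicate 3 as the lowest therefore rests on the depth scaling. Measured against the mean of the TGF-β1 group, in counts scaled by depth, ASNS was up 6.13-fold, 8.10-fold and 4.68-fold in ALB replicates 1 to 3. The same values were 4.14, 5.20 and 3.37 for PSAT1 and 2.34, 2.83 and 2.15 for PHGDH. The distance between replicates 2 and 3 was widest in the gene with the largest fold, 1.73-fold for ASNS, against 1.54-fold for PSAT1 and 1.32-fold for PHGDH. In FPKM the coefficient of variation over the ALB libraries was 27.3% for ASNS, 21.9% for PSAT1 and 13.4% for PHGDH, and over the TGF-β1 libraries 8.51%, 15.5% and 5.58%. The order of replicates 2, 1 and 3 was not particular to the enzymes. It was found in 143 of the 398 genes called higher (35.9%), in 106 of the 533 called lower (19.9%) and in 250 of all 937 (26.7%). All 3 enzymes had their highest depth-scaled count of the TGF-β1 group in replicate 3, as had 36.4% of the genes called higher and 48.6% of those called lower. Estimated relative depths ran from 0.920 to 1.13, with TGF-β1 replicate 3 the shallowest and ALB replicate 3 the deepest library. An error in these depths would move all genes of a library alike, and its part in the shared order was not tested.

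By root mean square difference of log2 depth-scaled counts over the 6 libraries, each gene centred on its own mean, the profiles nearest to ASNS among 548 named genes with a mean of at least 1 FPKM were those of FAM107B (0.22), SPX (0.24), CHAC1 (0.26), NIBAN1 (0.29) and PSAT1 (0.29). SPX encodes the peptide hormone spexin and CHAC1 an enzyme that breaks down glutathione. The median distance from ASNS was 1.83. Nearest to PSAT1 were UNC5B (0.13), a netrin receptor, NIBAN1 (0.14), TRIB3 (0.15), a pseudokinase that ATF4 induces, SLC1A4 (0.16), a carrier of serine and other neutral amino acids, and FAM107B (0.17), against a median of 1.56. ASNS was the 22nd nearest gene to PSAT1. Nearest to PHGDH were RHBDL1 (0.071), CCNG2 (0.075), a cyclin, TXNRD1 (0.080), thioredoxin reductase, HSPA4L (0.086), a chaperone, and SLC3A2 (0.087), against a median of 1.17. PHGDH was only the 67th nearest gene to PSAT1 (0.42) and the 86th to ASNS (0.68), since the measure takes in the size of the change. Every gene of the table was chosen for a difference between these groups, so likeness over the 6 libraries is in large part likeness of fold change.

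**Figure D3:**
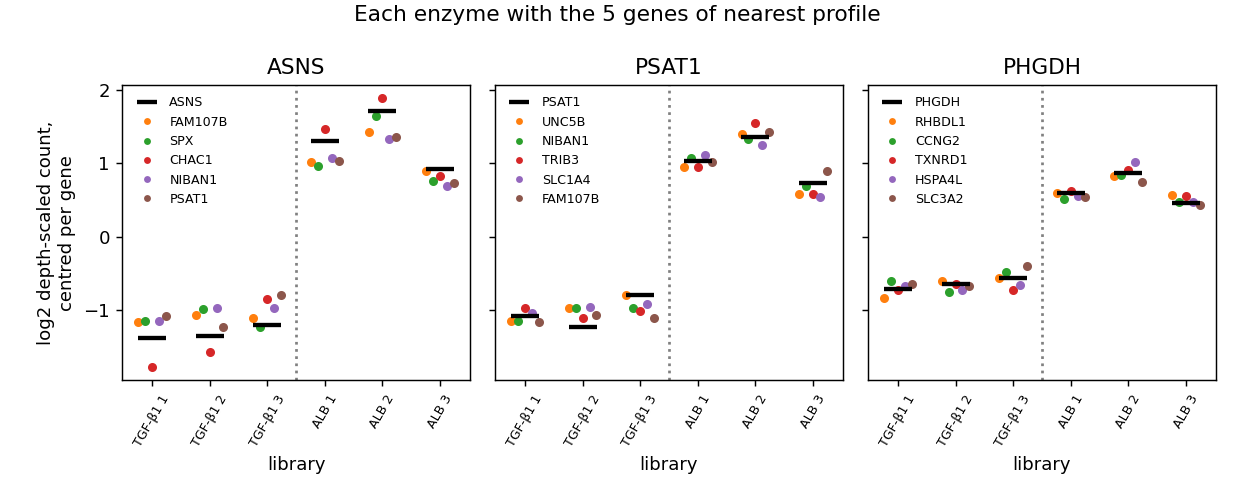
Log2 depth-scaled counts, centred on the mean of each gene (vertical axis), in the 6 libraries for ASNS, PSAT1 and PHGDH (black dashes) and the 5 genes of nearest profile to each (coloured points). In all 3 panels the black dash is highest in ALB replicate 2 and lowest of the ALB group in replicate 3, and the step between the groups is smallest for PHGDH.

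The genes around the enzymes were read from lists of their pathways. Of 33 genes of serine, glycine and one-carbon metabolism 4 were in the table, PHGDH and PSAT1 among them. All 4 were called higher (42.5% of the table), with a median log2 fold change of 1.59. The median of the table, -0.97, is no yardstick for this value, since more of its genes were called lower than higher. Among the 400 genes with a positive fold change PHGDH, at 1.29, stood only 246th. PSPH, the last enzyme of serine synthesis, and SHMT2, which makes glycine from serine in mitochondria, were not among the 937 genes. ALDH1L2, a mitochondrial enzyme that oxidises a one-carbon folate, was at 1.18, 1.32 and 1.29 FPKM in TGF-β1 replicates 1 to 3 and at 4.07, 5.99 and 2.76 FPKM in ALB replicates 1 to 3. It showed the same order of ALB libraries as the enzymes, and edgeR put its rise at 1.86 ± 0.27 (SE) in log2 units (adjusted p = 0.000247). GLDC, the decarboxylase of the glycine cleavage system, was at 1.03, 0.946 and 1.07 FPKM and at 2.83, 2.89 and 3.14 FPKM in the corresponding libraries. It rose by 1.31 on the log2 scale (SE 0.23, adjusted p = 0.000702 by edgeR), and unlike the enzymes it was highest in ALB replicate 3. Of 30 genes that make or use asparagine, aspartate, glutamate, proline and arginine only ASNS was in the table.

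Of 25 carriers that move asparagine, serine and other amino acids 6 were in the table, 5 called higher (42.5% of the table) and 1 lower (56.9% of the table), with a median log2 fold change of 1.65. SLC1A4, which exchanges serine, alanine and cysteine, rose from 4.83 ± 0.160 to 18.7 ± 4.43 FPKM (n = 3 libraries per group), by 1.97 on the log2 scale (SE 0.21, adjusted p = 7.64e-05 by edgeR). SLC7A5 and SLC3A2, the light and heavy chains of the large neutral amino acid exchanger, rose from 14.2 ± 3.45 to 52.7 ± 15.2 FPKM and from 107 ± 7.96 to 245 ± 25.3 FPKM. SLC7A11, which pairs with the same heavy chain to import cystine, rose from 1.83 ± 0.800 to 11.7 ± 6.32 FPKM, by 2.68 in log2 units with the widest SE of the list, 0.46. SLC43A2, a carrier of large neutral amino acids, rose from 2.70 ± 0.215 to 7.14 ± 0.626 FPKM. The gene that fell was SLC38A5, a sodium-coupled carrier of glutamine, asparagine and serine. It was at 9.47, 12.7 and 12.9 FPKM in TGF-β1 replicates 1 to 3 and at 1.54, 1.06 and 1.29 FPKM in ALB replicates 1 to 3, which is -2.99 in log2 units (SE 0.23, adjusted p = 1.73e-05 by edgeR).

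Of 22 factors and effectors of the ATF4 pathway 7 were in the table and all 7 were called higher, with a median log2 fold change of 1.92. Of all genes of the table, 99.4% were called and 42.5% were called higher. In log2 units the largest rises were 3.65 for DDIT4, an inhibitor of mTORC1, 2.80 for CHAC1, 2.11 for TRIB3 and 1.92 for SESN2, a sensor of leucine. ATF3, DDIT3 and VLDLR were the other members, the last with the lowest rise, 1.24, so that ASNS and PSAT1 lay inside this range and PHGDH close to its lower end. ATF4 itself was not among the 937 genes. Nor was any of 20 cytosolic aminoacyl-tRNA synthetases, of 12 genes of the eIF2 kinases and phosphatases or of 17 genes of the chaperones and factors of the endoplasmic reticulum, of which 0 were in the table for each list. For a gene that is not in the table no value was analysed here, so whether it was unchanged, changed less or was left untested by the study cannot be told.

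**Figure D4:**
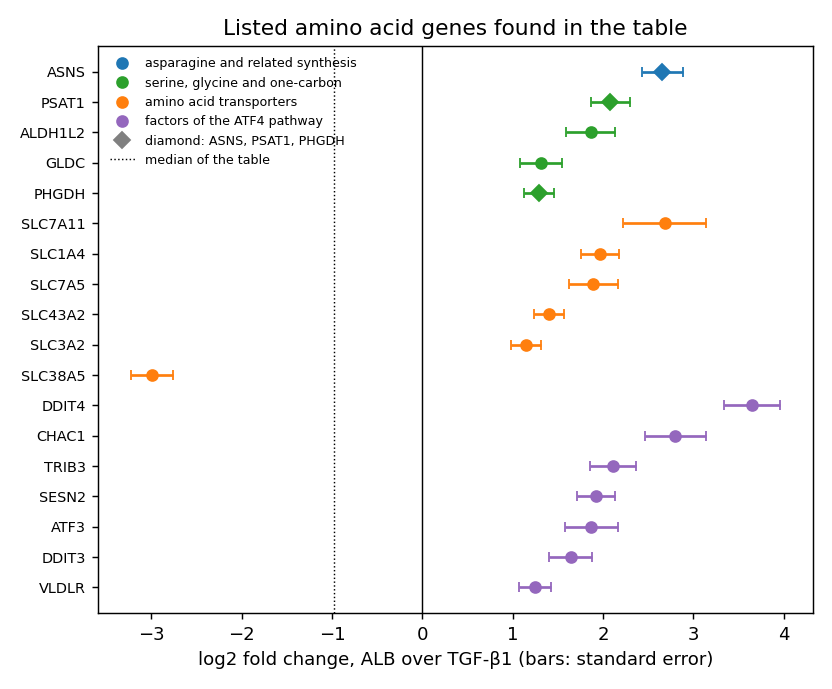
Log2 fold change of ALB over TGF-β1 (horizontal axis, bars are standard errors from edgeR) for the genes of 4 pathway lists that were in the table, coloured by list, with ASNS, PSAT1 and PHGDH as diamonds. All but SLC38A5, at -2.99, lie to the right of 0. The dotted line is the median of the table, -0.97, in which more genes were called lower than higher.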

How the data were processed

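RNA-seq of 6 LX-2 libraries was analysed, 3 per group. The authors deposited whole-number counts and FPKM values for genes they had called with DESeq2. The labels list CASAVA 1.4 and 2 mouse builds, mm9 and mm10, although gene names are human. The aligner, counter and human build were not stated. Columns were matched to samples by replicate number, with the TGF-β1 group titled control.

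Relative depth was estimated as the median count per FPKM over 565 genes with 50 or more counts throughout, as sums over called genes are not depths. All 937 genes were fitted with edgeR 4.0.16 (quasi-likelihood, R 4.3.3, Benjamini-Hochberg, threshold 0.05), and the SE is the size of the log2 fold change divided by the root of F. Permutation tests used scipy 1.17.1. Fits were tested on simulated data in which most genes were unchanged, so that test does not cover a table of genes chosen for their change. Alternatives were DESeq2 1.42.0 (both depth scalings), TMM, limma 3.58.1 on log2 FPKM with pseudocounts 1 and 0.1, a minimum mean of 1 FPKM, a replicate block, each library left out and, added after seeing the data, mean log2 FPKM.

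Enzymes, lists and tests were chosen with earlier results of these data known. Named genes were the enzymes, all tabled members of the synthesis and carrier lists, the 4 largest changes of other lists and the 5 nearest profiles (0.5 added to depth-scaled counts). Other list members were named after their values were seen. The GTTACA and CCAAT motifs were added after the sequences were seen.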

Additional observations from a re-analysis of the deposited data

How the results depend on the processing

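The log2 fold changes of ASNS, PSAT1 and PHGDH were positive and passed the threshold under all 13 alternatives with a test, with an adjusted p of at most 0.00186 (edgeR, for PHGDH without TGF-β1 replicate 1). This is no separate support, since the table had been selected on these libraries. With each library left out they ran from 2.43 to 2.83 for ASNS, 1.91 to 2.22 for PSAT1 and 1.17 to 1.37 for PHGDH, lowest without ALB replicate 2 and highest without ALB replicate 3 for each. The log2 ratio differences then ran from 1.26 to 1.48 (ASNS to PHGDH), 0.49 to 0.70 (ASNS to PSAT1) and 0.68 to 0.85 (PSAT1 to PHGDH). With counts in place of FPKM they were 1.34, 0.55 and 0.79. The number of genes called lower was 331 with TMM and 278 with DESeq2's own size factors, against 533, because both shift fold changes upwards. With a minimum mean of 1 FPKM 241 genes were called higher, as 618 genes were tested. The carrier, serine and ATF4 pathway lists had the same counts of higher and lower calls under all of these alternatives. With the replicate number as a block the fold changes were 2.62, 2.07 and 1.28. The labels share only numbers between the groups, and same-numbered libraries did not deviate together (correlation of deviations over 565 genes 0.11, -0.03 and -0.11 for replicates 1 to 3), so the numbers were not taken as pairs. With 3 libraries per group, the ratios could not reach a p under 0.1.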

Other observations

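ASNS differed from the serine enzymes in how its counts and its FPKM values related. The count divided by FPKM and by relative depth, which stands for the transcript length used in the FPKM, was nearly constant over the 6 libraries for PSAT1 (79.7 to 80.4) and PHGDH (65.9 to 67.8), but ran from 75.9 to 87.0 for ASNS, with the ends in TGF-β1 replicates 2 and 1. The highest value was 1.15 times the lowest for ASNS, more than in 70.8% of the genes with at least 50 counts, whose median was 1.06. GENCODE 29 gives 17 transcripts for ASNS, 34 for PHGDH and 2 for PSAT1. In FPKM the lead of TGF-β1 replicate 2 over replicate 1 was larger (13.1 against 11.3) than in depth-scaled counts (996 against 984). The fold change of ASNS was nearly the same on both scales, since the mean log2 FPKM differed by 2.64 between the groups.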
